A study of Mus musculus with 32 samples.

Results

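The genes described here make, regulate and clear cholesterol. They were taken from a list of 30 symbols in 4 steps, early mevalonate synthesis, squalene to cholesterol, SREBP regulation, and turnover and transport, and 28 of the 30 were measured among the 18193 genes of the study. Acat2, a thiolase at the head of the pathway, and Soat1, which esterifies cholesterol for storage, had no probe set of a single gene in the probe table and were not analysed here. The tissue was striatum. The animals were males aged 12 weeks of a CBA X C57Bl/6 background. R6/2 mice carry a transgene with a fragment of human huntingtin and serve as a model of Huntington's disease, so every difference between the genotypes belongs to that transgenic line. NVP-HSP990 (HSP990 below) is an inhibitor of the chaperone HSP90 and was given by gavage at 12 mg/kg, and the arrays report the state at 4 h. The 4 groups were R6/2 on HSP990 (8 arrays), R6/2 on vehicle (7 arrays), wild type on HSP990 (10 arrays) and wild type on vehicle (7 arrays). The labels give no animal identifiers, so each p-value rests on the spread among arrays, which may be technical.

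Cholesterol is built from acetyl-CoA through mevalonate, isoprenoid units and squalene, and a chain of sterol intermediates leads from lanosterol to the product. The transcription factor SREBP2, encoded by Srebf2, drives most genes of the chain when sterols in the endoplasmic reticulum are low. Scap escorts it to the Golgi apparatus for cleavage, and the Insig proteins hold the complex back when sterols are plentiful. The brain makes its own cholesterol because plasma lipoproteins hardly cross the blood-brain barrier. Much of it lies in myelin, astrocytes pass it to neurons on particles that carry apolipoprotein E, and neurons clear it through the hydroxylase Cyp46a1.

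Promoters are shown for 6 genes whose levels carry the results below: Mvd and Tm7sf2, which were lower with HSP990 in wild type, and Hmgcs1, Msmo1, Insig1 and Cyp46a1, which were lower in R6/2. Each line holds the 250 bases before the gene's most upstream start in the promoter table, from RefSeq (GRCm38.p6), 5′ to 3′ on the strand of the gene. Capitals mark a match, on either strand, to 1 of 4 motifs: TCACNCCAC (a sterol regulatory element), CCAAT (the NF-Y box), GAANNTTC (a heat shock element) and CACGTG (an E-box).
Mvd: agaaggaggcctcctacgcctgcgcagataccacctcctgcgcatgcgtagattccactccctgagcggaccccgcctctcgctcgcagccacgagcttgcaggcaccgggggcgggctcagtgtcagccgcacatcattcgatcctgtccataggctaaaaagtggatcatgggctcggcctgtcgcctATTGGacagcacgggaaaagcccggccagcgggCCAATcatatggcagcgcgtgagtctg
Tm7sf2: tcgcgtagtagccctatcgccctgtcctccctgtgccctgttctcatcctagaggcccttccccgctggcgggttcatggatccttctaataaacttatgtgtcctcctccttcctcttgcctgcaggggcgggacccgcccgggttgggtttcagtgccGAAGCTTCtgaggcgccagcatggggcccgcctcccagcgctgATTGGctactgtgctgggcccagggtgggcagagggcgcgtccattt
Hmgcs1: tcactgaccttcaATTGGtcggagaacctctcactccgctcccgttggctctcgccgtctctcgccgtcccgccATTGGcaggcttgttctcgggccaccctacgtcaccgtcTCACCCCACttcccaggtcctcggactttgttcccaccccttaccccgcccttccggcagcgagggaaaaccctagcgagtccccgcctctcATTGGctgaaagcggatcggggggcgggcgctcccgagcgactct
Msmo1: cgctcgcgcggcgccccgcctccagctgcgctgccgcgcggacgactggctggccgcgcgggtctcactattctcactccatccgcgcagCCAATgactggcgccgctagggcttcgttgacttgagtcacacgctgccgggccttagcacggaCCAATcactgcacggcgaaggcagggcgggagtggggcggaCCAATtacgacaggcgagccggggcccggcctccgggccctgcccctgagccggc
Insig1: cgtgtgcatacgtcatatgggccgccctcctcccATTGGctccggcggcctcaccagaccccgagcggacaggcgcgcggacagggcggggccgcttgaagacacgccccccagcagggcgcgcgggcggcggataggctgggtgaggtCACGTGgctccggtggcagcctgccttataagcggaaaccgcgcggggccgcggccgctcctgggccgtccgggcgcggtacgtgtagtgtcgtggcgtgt
Cyp46a1: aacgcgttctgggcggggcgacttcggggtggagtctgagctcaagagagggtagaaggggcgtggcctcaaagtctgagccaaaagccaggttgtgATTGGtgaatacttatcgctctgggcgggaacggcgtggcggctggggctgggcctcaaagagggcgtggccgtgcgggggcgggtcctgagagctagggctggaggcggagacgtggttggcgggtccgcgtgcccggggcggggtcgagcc
These windows are chr8:122443423-122443672 on the minus strand for Mvd, chr19:6067851-6068100 on the minus strand for Tm7sf2, chr13:119690101-119690350 on the plus strand for Hmgcs1, chr8:64733579-64733828 on the minus strand for Msmo1, chr5:28071162-28071411 on the plus strand for Insig1 and chr12:108334066-108334315 on the plus strand for Cyp46a1. Of the 28 measured genes, 23 had an entry, and the search ran over 250 bases before and 50 after the start. CCAAT stood in 82.6% of the 23 promoters and in 15 of the 16 of the synthesis genes, against 38% of all 27025 genes' promoters. TCACNCCAC was found in Hmgcs1 alone (4.35%, against 1.22% of all promoters), at position -137 from the start. GAANNTTC was found in Idi1 and Tm7sf2 (8.7%, against 7.96%), and CACGTG in Hsd17b7, Sc5d, Scap, Insig1 and Abca1 (21.7%, against 7.24%). No match overlapped another. The RefSeq gene record of Cyp46a1 opens within its window, so the last bases shown lie inside that record. A match describes letters in a window and is not a measured binding site.

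All values are log2 array signals as deposited, and a level cannot be compared between probe sets, so genes are compared with themselves across groups. The median of all probe sets was 5.77, and the mean level of the 28 genes ran between 6.69 for Mvd and 12.33 for Apoe. The tissue was checked with 10 measured markers of medium spiny neurons, the main neurons of the striatum. They averaged 10.32 in R6/2 on HSP990 and 10.31 in R6/2 on vehicle, against 11.86 in wild type on HSP990 and 11.81 in wild type on vehicle, so they were well above the array median in every group. In bulk tissue, fewer cells of a type and less RNA per cell cannot be told apart. One R6/2 HSP990 array, replicate 5, stood apart in RNA quality: its 3′ bias, the mean 3′ minus 5′ difference of the Gapdh and Actb control probe sets, was 4.56 log2 units. The next highest array, a wild-type vehicle array, had 2.45.

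In wild-type striatum HSP990 lowered 5 of the 28 genes, Mvd, Fdft1, Tm7sf2, Lbr and Stard4, and raised none. The falls ran between a change of -20.01% for Lbr and one of -37.78% for Fdft1. Over all genes 3.57% were lower and 2.24% were higher, at an adjusted p under 0.05 in limma with Benjamini-Hochberg adjustment. The median change of the 28 was -0.02, beside -0.03 for all genes. Groups did not overlap for 3 of the 28, Mvd, Fdft1 and Tm7sf2, beside 1.47% of all genes. In each of the 3, the 10 HSP990 arrays lay below the lowest of the 7 vehicle arrays. Among cell type markers in the same comparison, S1pr1 of the astrocyte list (0.59 ± 0.12), Olig2 of the oligodendrocyte precursor list (0.60 ± 0.14) and Flt1 of the endothelial list (0.39 ± 0.07) were higher, and the endothelial Esam was lower (-0.46 ± 0.07). Of 6 choroid plexus markers 0 passed in limma and 1 had an unadjusted p under 0.05, though the estimates of all 6 were below 0 (median -0.61). Their array means ran between 5.86 and 9.50 in wild type on HSP990 and between 6.00 and 9.09 in wild type on vehicle. The part of these markers in the result was not tested.

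Mvd decarboxylates phosphorylated mevalonate to the isoprenoid unit on which the rest of the pathway is built. Its lowest, median and highest log2 values were 6.33, 6.49 and 6.71 in wild type on HSP990, against 6.80, 7.18 and 7.59 in wild type on vehicle. The log2 change was -0.61 ± 0.09 (SE), with a limma adjusted p of 5.0e-05. Of the other early genes, Hmgcs1, Mvk, Pmvk, Idi1, Fdps and Ggps1, none passed, and their changes ran between -0.16 for Hmgcs1 and 0.12 for Ggps1.

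Fdft1, squalene synthase, commits isoprenoids to sterols. Its values were 9.21, 9.46 and 9.68 in wild type on HSP990, against 9.75, 10.17 and 10.46 in wild type on vehicle, a log2 change of -0.68 ± 0.11 (adjusted p 0.000127). This was the largest fall of the 28. Tm7sf2 and Lbr encode reductases of the same sterol step, and Lbr is also the lamin B receptor of the inner nuclear membrane. Tm7sf2 values were 6.57, 6.77 and 6.95 in wild type on HSP990, against 6.97, 7.11 and 7.39 in wild type on vehicle, a change of -0.42 ± 0.09 (adjusted p 0.00185). Lbr values were 7.11 at the lowest and 7.81 at the highest, with a median of 7.5, in wild type on HSP990, against 7.62, 7.91 and 8.04 in wild type on vehicle, with overlap, and the change was -0.32 ± 0.09 (adjusted p 0.0311). The Lbr call was lost when any 1 of 8 arrays was left out. The other 9 genes between squalene and cholesterol did not pass, with changes between -0.24 for Sqle, which epoxidises squalene, and 0.33 for Msmo1, a methylsterol oxidase. In alternative fits, Msmo1 passed as higher with the mean of its probe sets (0.31, limma adjusted p 0.0268). Sqle passed as lower with only the compared groups fitted (-0.24, limma adjusted p 0.0397).

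None of the 4 SREBP genes passed with HSP990 in wild type. Srebf2 had a change of 0.30 ± 0.21 and Insig1 one of -0.29 ± 0.14 (adjusted p 0.49 and 0.26). Among the transport genes, Stard4, a cytosolic sterol carrier, fell: its values were 6.84, 7.23 and 7.6 in wild type on HSP990, against 7.29, 7.79 and 7.97 in wild type on vehicle. The change was -0.45 ± 0.11 (adjusted p 0.00899), and the groups overlapped. Npc1, which exports cholesterol out of lysosomes, ran the other way, without passing as tested here: 8.08, 8.34 and 8.68 in wild type on HSP990, against 7.71, 7.84 and 8.15 in wild type on vehicle. Its change was 0.46 ± 0.15 (adjusted p 0.0622). Myelin marker levels moved with it: the 10 markers averaged 10.73 in wild type on HSP990 and 10.45 on vehicle, though none of the 10 passed. With the myelin level of each array as a covariate, the Npc1 change was 0.27 ± 0.13 (adjusted p 0.283). Npc1 did pass with median centring (adjusted p 0.0297), without dim genes (0.0456), with only the compared groups fitted (0.00324) and with array weights (0.0219), at changes of 0.46 to 0.50, and in 3 of the 32 fits without 1 array.

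**Figure D1:**
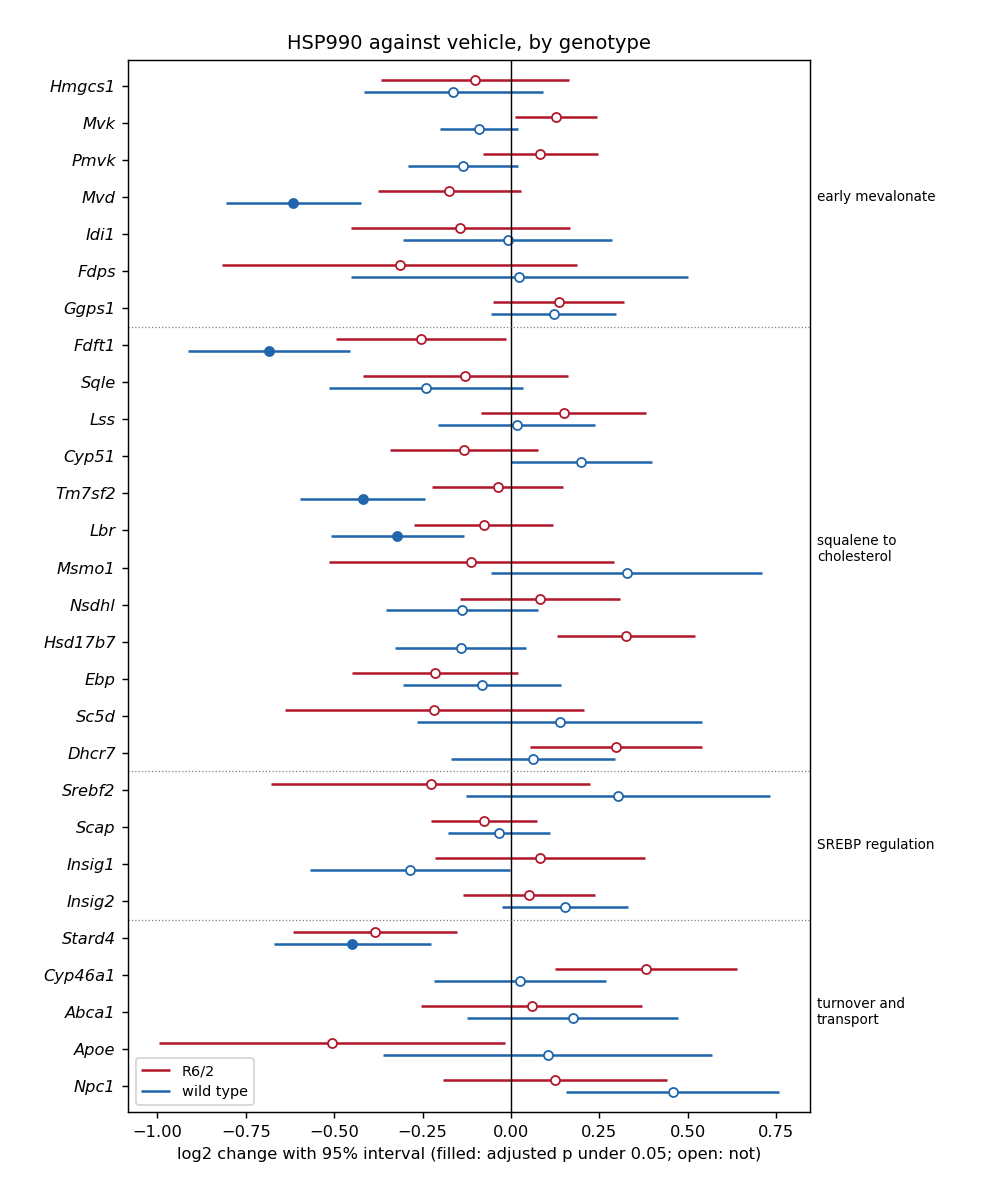
Log2 change of 28 cholesterol genes with HSP990 against vehicle, in R6/2 and in wild type (points: limma estimate, lines: 95% interval, filled where the adjusted p is under 0.05). The 5 filled points are wild type and lie below 0, and no R6/2 point is filled.

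**Figure D2:**
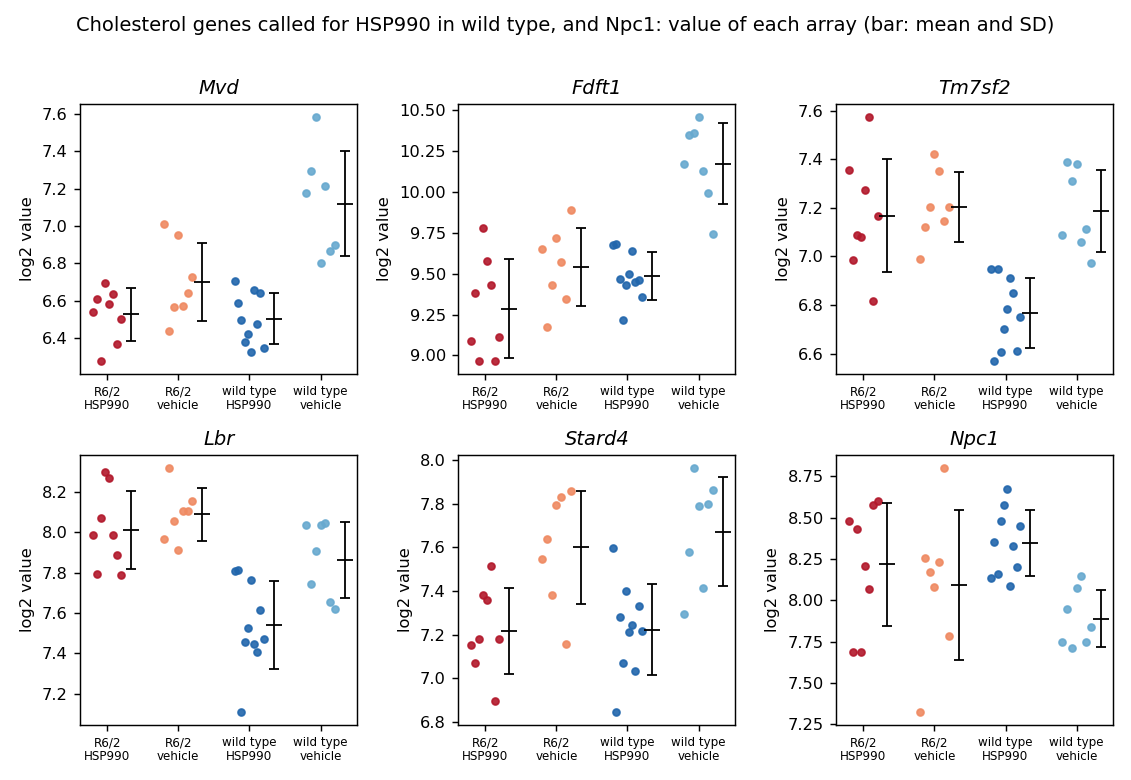
Log2 value of each array for Mvd, Fdft1, Tm7sf2, Lbr, Stard4 and Npc1 in the 4 groups, with each group's mean and SD as a bar. In Mvd, Fdft1 and Tm7sf2 the wild-type HSP990 points lie wholly below the wild-type vehicle points.

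In R6/2 striatum none of the 28 genes passed with HSP990, beside 3.09% of all genes in either direction. At an unadjusted p under 0.05, 4 were higher and 3 lower, and no gene had groups that did not overlap, beside 0.671% of all genes. Stard4 came near: 6.89, 7.18 and 7.52 in R6/2 on HSP990, against 7.16, 7.64 and 7.86 in R6/2 on vehicle, a change of -0.38 ± 0.11 (adjusted p 0.058). Hsd17b7, a ketosteroid reductase in the removal of methyl groups, had a change of 0.33 ± 0.10 (adjusted p 0.054), and Cyp46a1 had 0.38 ± 0.13 (adjusted p 0.0937). Hsd17b7 levels followed the 3′ bias of the arrays, and its change with the bias as a covariate was 0.20 (adjusted p 0.214). Leaving out R6/2 vehicle replicate 1 alone brought 4 of the 28 past the threshold.

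Whether the response differed between the genotypes was tested directly. The interaction, the R6/2 change minus the wild-type change, passed for none of the 28, beside 0.247% of all genes. At an unadjusted p under 0.05, 7 of the 28 stood out, 6 positive and 1 negative. Mvd changed by -0.17 ± 0.10 in R6/2, against -0.61 ± 0.09 in wild type, and the interaction was 0.44 ± 0.14 (adjusted p 0.15). Fdft1 had an interaction of 0.43 ± 0.16 (adjusted p 0.246), Tm7sf2 one of 0.38 ± 0.13 (adjusted p 0.175) and Hsd17b7 one of 0.47 ± 0.13 (adjusted p 0.107). The falls of Mvd, Fdft1 and Tm7sf2 in wild type are therefore not shown to differ from the R6/2 response.

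Averaged over the genotypes, HSP990 lowered 4 of the 28 and raised none, beside 3.7% of all genes lower and 3.99% higher. They were Fdft1 (-0.47 ± 0.08, adjusted p 0.000178), Mvd (-0.39 ± 0.07, adjusted p 0.000174), Stard4 (-0.42 ± 0.08, adjusted p 0.000563) and Tm7sf2 (-0.23 ± 0.06, adjusted p 0.0189). In R6/2 alone, Fdft1 changed by -0.25 ± 0.12, Mvd by -0.17 ± 0.10 and Tm7sf2 by -0.04 ± 0.09, and none passed. In wild type these changes were -0.68, -0.61 and -0.42. An averaged fall therefore does not show a fall in each genotype. For the brightest Stard4 probe set the 2 responses were alike in size, -0.38 in R6/2 and -0.45 in wild type, with an interaction of 0.06 ± 0.16. The other 2 Stard4 sets had -0.03 and -0.17 in R6/2, and -0.10 and -0.36 averaged over genotypes.

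Between the genotypes, more of the 28 genes were called than with HSP990, and so were more of all genes. On vehicle, 7 genes were lower in R6/2 and 3 were higher, beside 9.6% of all genes lower and 11.9% higher. On HSP990, 10 were lower and 7 higher, beside 11% lower and 22.6% higher. The median change of the 28 was -0.10 on vehicle and -0.14 on HSP990, beside -0.01 on vehicle and 0.04 on HSP990 for all genes. The 2 comparisons share no arrays. Lower on both treatments were Hmgcs1, Msmo1, Dhcr7, Insig1 and Cyp46a1, and higher on both were Ggps1, Insig2 and Abca1.

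Cell type markers moved with these differences. Markers of medium spiny neurons were lower in R6/2 in 9 of 10 cases on each treatment, with array means of 9.64 to 10.65 in R6/2 on HSP990 and 9.32 to 10.86 in R6/2 on vehicle, against 11.46 to 11.97 in wild type on HSP990 and 11.53 to 11.92 in wild type on vehicle. On HSP990, 6 of 10 myelin markers, 6 of 10 astrocyte markers and 4 of 9 microglial markers were also lower in R6/2, and on vehicle 1 of 10, 2 of 10 and 3 of 9 were. The myelin list averaged 10.29 in R6/2 and 10.73 in wild type on HSP990, and 10.26 in R6/2 and 10.45 in wild type on vehicle. The astrocyte list averaged 9.66 in R6/2 and 9.95 in wild type on HSP990, and 9.77 in R6/2 and 9.93 in wild type on vehicle. The 6 choroid plexus markers were also below 0 on vehicle (median -0.96), where 0 passed and 2 had an unadjusted p under 0.05. Their array means ran between 5.57 and 7.35 in R6/2 on vehicle, against 6.00 to 9.09 in wild type on vehicle. With the myelin level as a covariate, the HSP990 count was 7 higher and 5 lower, and the vehicle count was 4 higher and 8 lower. On HSP990, 6 calls were then lost. Of these, Dhcr7 had -0.33 ± 0.13 (adjusted p 0.0561), Insig1 -0.41 ± 0.16 (0.0504), Idi1 -0.41 ± 0.16 (0.0597) and Scap -0.18 ± 0.08 (0.0823), differences about as large as without the covariate. Apoe had -0.38 ± 0.25 (0.293) and Pmvk 0.10 ± 0.08 (0.424). The part that the other lists play in the gene results was not tested.

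At the head of the pathway, Hmgcs1 joins acetyl groups into the precursor of mevalonate. Its values were 10.51, 10.93 and 11.21 in R6/2 on HSP990, against 11.12, 11.32 and 11.56 in wild type on HSP990, a change of -0.45 ± 0.12 (adjusted p 0.00336). On vehicle they were 10.59, 10.92 and 11.55 in R6/2, against 10.92, 11.56 and 11.76 in wild type, a change of -0.51 ± 0.13 (adjusted p 0.00578). The groups overlapped on both treatments. Mvd was lower in R6/2 on vehicle (6.44, 6.64 and 7.01 in R6/2, against 6.80, 7.18 and 7.59 in wild type), by a log2 change of -0.42 ± 0.10 (adjusted p 0.00303). On HSP990 the Mvd difference was 0.02 ± 0.09, with the wild-type level down at that of R6/2. Idi1, which isomerises the isoprenoid unit, was lower on HSP990 (-0.49 ± 0.14, adjusted p 0.00635), and on vehicle it had -0.35 ± 0.16 (adjusted p 0.11). Ggps1, which makes the geranylgeranyl donor for protein prenylation and so leads away from sterols, was higher on both, by 0.32 ± 0.08 on HSP990 and 0.30 ± 0.09 on vehicle (adjusted p 0.0033 and 0.0197). Pmvk, which phosphorylates phosphomevalonate, was higher on HSP990 by 0.19 ± 0.07 (adjusted p 0.0466), a call lost when any 1 of 14 arrays was left out. It had 0.10 with median centring (adjusted p 0.308) and 0.11 with the 3′ bias of the arrays as a covariate (adjusted p 0.298). Mvk and Fdps passed on neither treatment.

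Between squalene and cholesterol the enzymes moved in both directions. Msmo1, which oxidises methyl groups of lanosterol derivatives, showed the largest difference of the 28 on HSP990. Its values were 7.80, 8.61 and 9.18 in R6/2 on HSP990, against 9.30, 9.68 and 9.82 in wild type on HSP990, and the 8 R6/2 arrays lay below all 10 wild-type arrays. The change was -1.12 ± 0.18, a level 2.17-fold lower in R6/2 (adjusted p 1.0e-05), and Msmo1 was the 1 gene of the 28 without overlap there, beside 9.4% of all genes. On vehicle the values were 7.55, 8.64 and 9.47 in R6/2, against 8.90, 9.22 and 9.76 in wild type, with overlap and a change of -0.68 ± 0.20 (adjusted p 0.0151). Fdft1 was lower in R6/2 on vehicle, with 9.18, 9.57 and 9.89 in R6/2, against 9.75, 10.17 and 10.46 in wild type, and a change of -0.63 ± 0.12 (adjusted p 0.000254). Dhcr7, the reductase of a last step to cholesterol, had values of 7.41, 7.73 and 7.88 in R6/2 on vehicle, against 7.65, 8.31 and 8.70 in wild type on vehicle. Its change was -0.54 ± 0.12 on vehicle (adjusted p 0.00157) and -0.31 ± 0.11 on HSP990 (adjusted p 0.0283). Cyp51, the lanosterol demethylase, was lower on HSP990: 7.09, 7.15 and 7.61 in R6/2, against 7.57, 7.82 and 8.04 in wild type (-0.61 ± 0.09, adjusted p 5.4e-06).

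Lbr, Tm7sf2 and Hsd17b7, of the same stretch, were higher in R6/2 on HSP990. Lbr had values of 7.79, 7.99 and 8.30 in R6/2, against 7.11, 7.5 and 7.81 in wild type, and the change was 0.47 ± 0.09 (adjusted p 8.7e-05). Tm7sf2 had 6.82, 7.13 and 7.58 in R6/2, against 6.57, 6.77 and 6.95 in wild type, a change of 0.40 ± 0.08 (adjusted p 0.000272). Hsd17b7 was higher by 0.37 ± 0.09 (adjusted p 0.00101). On vehicle none of the 3 passed: Lbr had 0.22 ± 0.10, Tm7sf2 0.02 ± 0.09 and Hsd17b7 -0.09 ± 0.10. Lbr and Tm7sf2 are also genes that HSP990 lowered in wild type, so the wild-type HSP990 arrays enter both results. For Mvd and Fdft1, the fall with HSP990 in wild type and the lower R6/2 level on vehicle likewise share the wild-type vehicle arrays. Sqle, Lss, Nsdhl, Ebp and Sc5d passed on neither treatment.

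Of the SREBP genes, Srebf2 itself was lower in R6/2 on HSP990: 6.77, 7.53 and 8.14 in R6/2, against 7.63, 8.68 and 8.82 in wild type. The change was -0.995 ± 0.20, a level 1.99-fold lower in R6/2 (adjusted p 0.000219), with overlap. On vehicle it was -0.47 ± 0.23 and did not pass (adjusted p 0.153), and the interaction was -0.53 ± 0.31 (adjusted p 0.481). The 2 Insig genes went in opposite directions in their brightest probe sets. Insig1, itself a target of SREBP2, had 7.70, 8.05 and 8.40 in R6/2 on vehicle, against 8.03, 8.93 and 9.02 in wild type on vehicle, a change of -0.75 ± 0.15 (adjusted p 0.0004). A single wild-type array, at 8.03, brought the overlap, the next lowest having 8.60. On HSP990 the Insig1 change was -0.38 ± 0.13 (adjusted p 0.0252). Insig2 had 8.94, 9.27 and 9.40 in R6/2 on vehicle, against 8.56, 9.01 and 9.25 in wild type on vehicle, a change of 0.31 ± 0.09 (adjusted p 0.0156). On HSP990 Insig2 was higher by 0.21 ± 0.08 (adjusted p 0.0494), a call lost when any 1 of 21 arrays was left out, and it had 0.12 with median centring (adjusted p 0.289). Scap was lower on HSP990 by a log2 change of -0.21 ± 0.07 (adjusted p 0.0143).

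In turnover, Cyp46a1 differed most. Its values were 9.65, 10.12 and 10.62 in R6/2 on vehicle, against 10.89, 11.12 and 11.46 in wild type on vehicle. The 7 R6/2 arrays lay below all 7 wild-type arrays, and this was the 1 gene of the 28 without overlap on vehicle, beside 3.9% of all genes. The change was -1.02 ± 0.13, a level 2.03-fold lower in R6/2 (adjusted p 6.9e-07). On HSP990 the values were 10.05, 10.60 and 10.80 in R6/2, against 10.58, 11.22 and 11.34 in wild type, a change of -0.66 ± 0.12 (adjusted p 2.7e-05), and 1 wild-type array at 10.58 brought the overlap. Abca1, which loads cholesterol onto apolipoproteins, was higher in R6/2. Its values were 9.73, 10.21 and 10.31 in R6/2 on HSP990, against 9.25, 9.66 and 9.80 in wild type on HSP990, a change of 0.52 ± 0.14 (adjusted p 0.0038). On vehicle the change was 0.64 ± 0.16 (adjusted p 0.00352), with overlap on both treatments. Apoe was lower on HSP990 by a log2 change of -0.57 ± 0.22 (adjusted p 0.0426), a size that 1 array sets, as given below. Stard4 and Npc1 passed on neither treatment.

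Averaged over treatments, 11 of the 28 were lower in R6/2 and 5 were higher, beside 14.6% of all genes lower and 24.3% higher. The largest falls were those of Msmo1 (-0.90 ± 0.14), Cyp46a1 (-0.84 ± 0.09) and Srebf2 (-0.73 ± 0.15). The 5 higher genes were Abca1 (0.58 ± 0.11), Lbr (0.35 ± 0.07), Ggps1 (0.31 ± 0.06), Insig2 (0.26 ± 0.06) and Tm7sf2 (0.21 ± 0.06). With the myelin covariate Tm7sf2 had 0.17 ± 0.07 (adjusted p 0.0623).

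**Figure D3:**
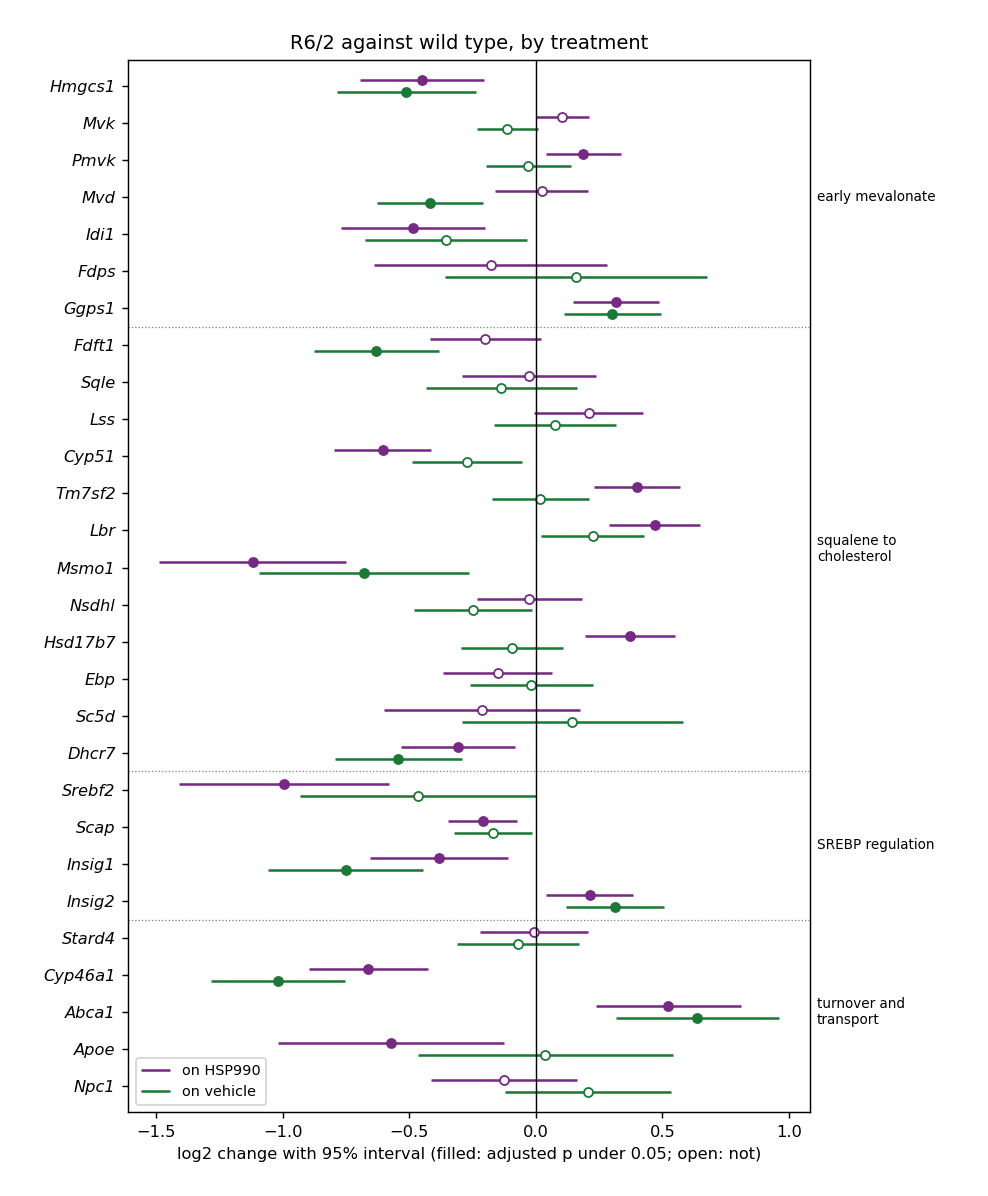
Log2 change of 28 cholesterol genes in R6/2 against wild type, on HSP990 and on vehicle (points: limma estimate, lines: 95% interval, filled where the adjusted p is under 0.05). Cyp46a1, Msmo1, Insig1, Hmgcs1 and Dhcr7 are filled below 0 on both treatments, and Abca1, Insig2 and Ggps1 above 0 on both.

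**Figure D4:**
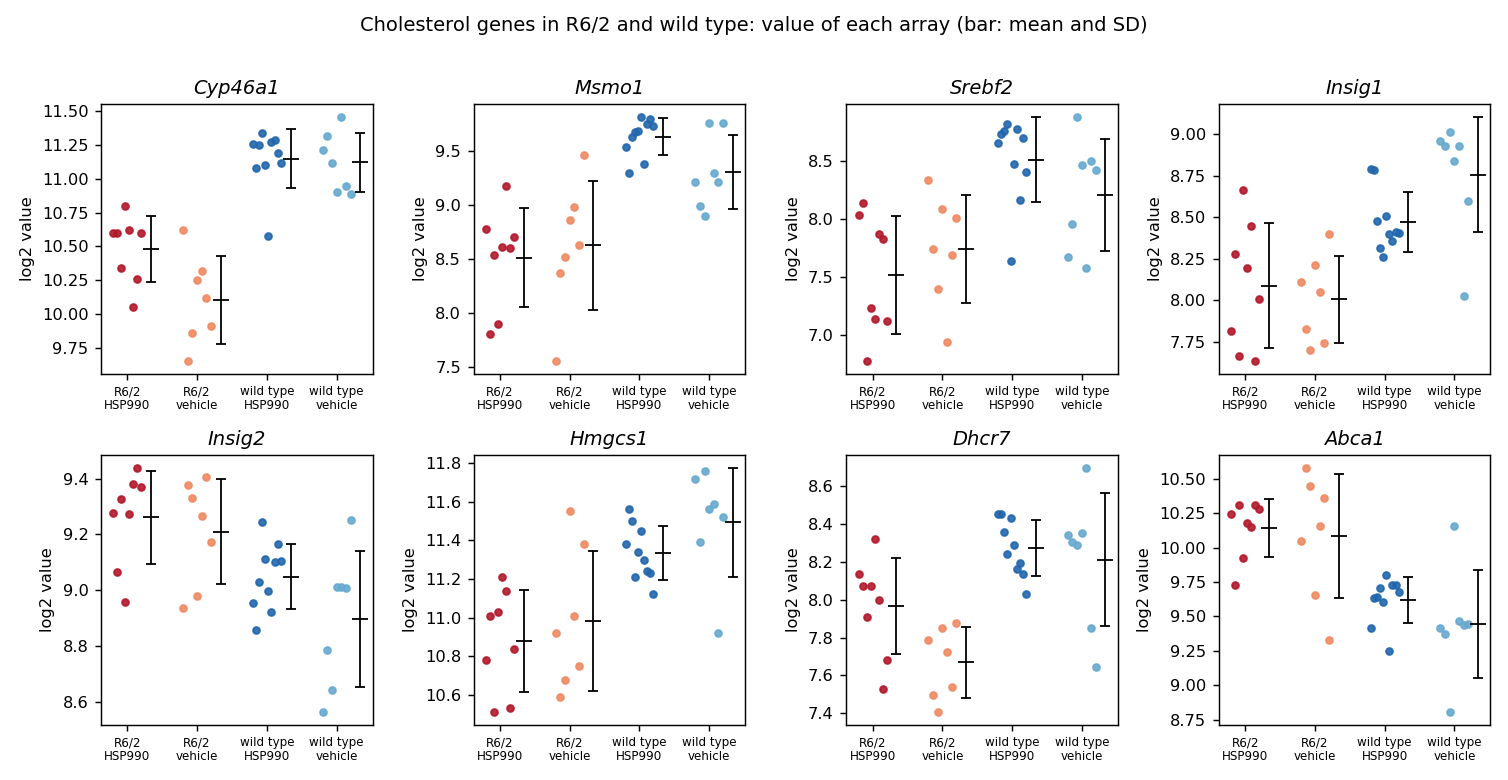
Log2 value of each array for 8 genes in the 4 groups, with each group's mean and SD as a bar. The R6/2 vehicle points of Cyp46a1 and the R6/2 HSP990 points of Msmo1 lie wholly below the wild-type points of the same treatment.

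Each gene above is read from its brightest probe set, and 17 of the 28 had more than 1. Both probe sets of Mvd fell with HSP990 in wild type, by -0.61 and -0.51, and so did the 2 brighter sets of Fdft1, by -0.68 and -0.43. Of 3 Stard4 sets, 2 fell there and the other had -0.16. In R6/2 on HSP990, both Msmo1 sets were lower (-1.12 and -0.72), as were both Srebf2 sets (-0.99 and -0.96) and 4 of 5 Hmgcs1 sets. On vehicle only the brightest Hmgcs1 set passed, at -0.51, with -0.25, -0.19, -0.13 and 0.03 in the other 4. Cyp51 sets disagreed: the brightest had -0.61 on HSP990, and the other 2 had 0.08 and 0.01. Averaged over treatments, the Cyp51 sets had -0.44, 0.20 and -0.04. With the mean of a gene's probe sets, the averaged calls of Cyp51 (-0.09, limma adjusted p 0.208) and Scap (-0.08, 0.26) were lost. Insig2 sets also disagreed in R6/2 on HSP990, with 0.21 in the brightest, 0.30 in the second and -0.17 in the third. Averaged over treatments these sets had 0.26, 0.37 and 0.02. With the mean of its probe sets, Insig2 on HSP990 was 0.11 (limma adjusted p 0.25). For Fdft1 on HSP990, the second set had -0.43 (adjusted p 0.000128 over all probe sets), whereas the brightest had -0.20 and did not pass. The other 2 Abca1 sets, at mean levels of 4.10 and 2.79, were dim and moved by 0.09 or less on either treatment. On HSP990 the 4 Ggps1 sets had 0.32, 0.31, 0.21 and 0.16, and only the brightest passed over all probe sets. The second Idi1 set had -0.37 on HSP990 and did not pass (limma adjusted p 0.102 over all probe sets).

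Several of the genes varied with RNA quality. Over the 32 arrays, with group means removed, the correlation of the level with the 3′ bias of the array was -0.88 for Apoe, -0.81 for Fdps, -0.78 for Ebp, 0.72 for Hsd17b7, -0.58 for Sc5d, 0.57 for Dhcr7, 0.52 for Cyp46a1 and 0.49 for Pmvk. The arrays share their normalization, and replicate 5 of R6/2 on HSP990 lies far from the others on the bias axis. Apoe read 9.72 on that array and 12.03 to 12.45 on the other 7. Without it, the Apoe difference between R6/2 and wild type on HSP990 was -0.25 (adjusted p 0.0426), and with the bias as a covariate it was -0.10 ± 0.12 (adjusted p 0.588). The differences of Cyp46a1 and Dhcr7 were as large with the covariate: -0.80 ± 0.11 and -0.46 ± 0.10 on HSP990 (adjusted p 1.2e-06 and 0.00071). Hsd17b7 on HSP990 was 0.23 ± 0.07 with it (adjusted p 0.0132). Mvd and Fdft1, which fell with HSP990 in wild type, had correlations of 0.43 and 0.42 with the bias. Their calls in that comparison held in each of the 12 alternative fits. Lbr did not pass there with the bias as a covariate (-0.29 ± 0.09, limma adjusted p 0.0534).

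**Figure D5:**
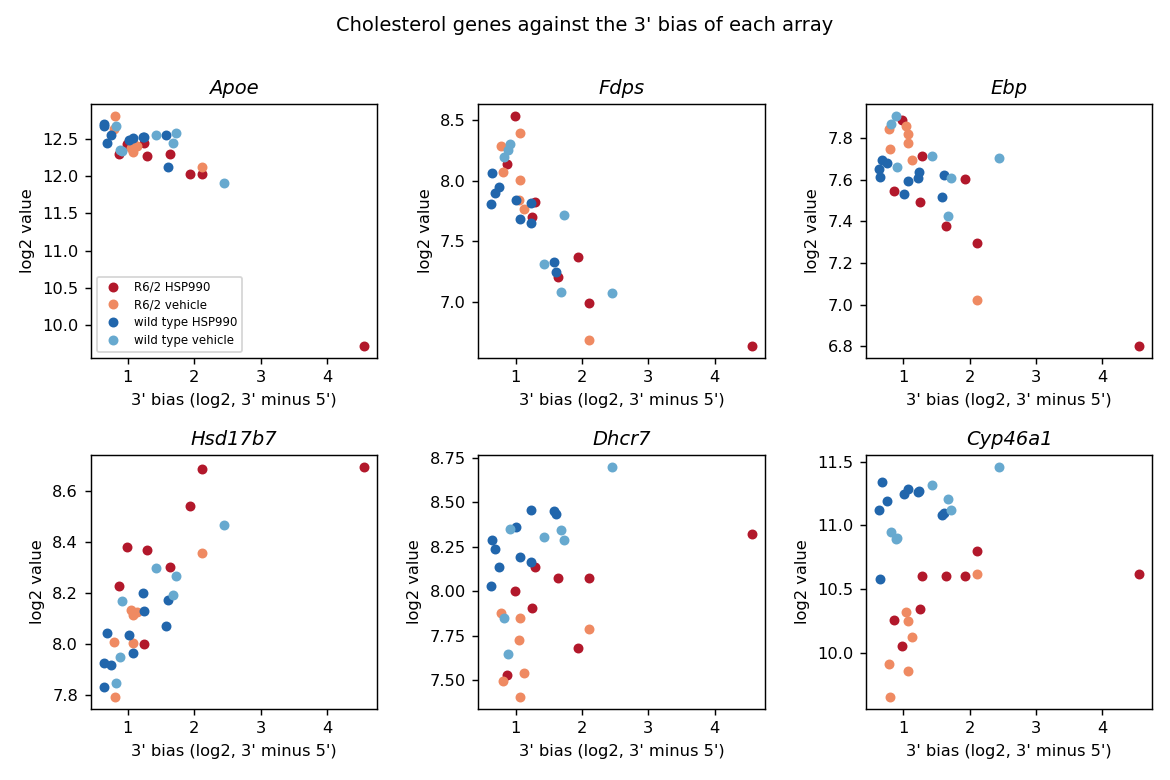
Log2 value of 6 genes against the 3′ bias of each array (mean 3′ minus 5′ difference of control probe sets, log2), coloured by group. Apoe, Fdps and Ebp are lowest on the R6/2 HSP990 array at a bias of 4.56, and Hsd17b7 is highest there.

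Within groups, some of the genes varied together across arrays, and the steps differed in how closely. With group means removed, the correlation over 32 arrays was 0.83 for Idi1 and Msmo1, 0.82 for Idi1 and Sqle, 0.81 for Hmgcs1 and Insig1 and 0.80 for Fdft1 and Insig1. With the 3′ bias removed as well, these were 0.84, 0.83, 0.79 and 0.77, whereas that of Fdps and Ebp was 0.46, against 0.80 before. The most negative pair was Pmvk and Insig2, at -0.79. The median correlation was 0.24 over the 66 pairs between squalene and cholesterol, 0.03 over the 21 pairs of early mevalonate genes, -0.21 over the 10 pairs of turnover genes and 0.06 over all 378 pairs, beside a mean of 0.01 over all gene pairs. The points share a normalization and differ in RNA quality, so these values describe the arrays.

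Neighbouring pathways were counted in 7 further lists, read against the shares of all genes given above. The SREBP processing list had 2 of 11 lower and 4 of 11 higher in R6/2 on HSP990, with the 2 proteases that release SREBP moving apart: Mbtps1 -0.43 ± 0.07 and Mbtps2 0.36 ± 0.07. On vehicle they were -0.36 ± 0.08 and 0.44 ± 0.08. In the list of fatty acid synthesis, which also holds Insig1, 4 of 15 were lower and 3 higher on HSP990, and 4 lower and 2 higher on vehicle. Srebf1, the sister factor that drives lipogenesis, was higher by 0.53 ± 0.09 on HSP990 and 0.31 ± 0.10 on vehicle. The desaturase Fads1 was lower by log2 changes of -0.38 ± 0.09 on HSP990 and -0.45 ± 0.11 on vehicle. In limma 0 of the 15 passed with HSP990 in either genotype, and at an unadjusted p under 0.05 there was 1 in R6/2 and 2 in wild type. Of the SREBP processing list, Syvn1 (0.29 ± 0.07) and Nploc4 (0.21 ± 0.06) rose with HSP990 in R6/2. None of the 11 passed in wild type, where 4 had an unadjusted p under 0.05. The interaction passed for none of the 11, so the response is not shown to differ between genotypes. Averaged over genotypes, 4 of the 11 were higher with HSP990, beside 3.99% of all genes, and none was lower. They were Paqr3 (0.31 ± 0.07), Syvn1 (0.19 ± 0.05), Ufd1 (0.36 ± 0.10) and Nploc4 (0.14 ± 0.04).

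Among LXR targets and efflux genes, the transporter Abca7 was higher in R6/2 by 1.29 ± 0.13 on HSP990 and 0.71 ± 0.15 on vehicle. Lcat, which esterifies cholesterol on lipoproteins, was lower by log2 changes of -0.44 ± 0.12 on HSP990 and -0.47 ± 0.14 on vehicle. The list had 2 higher and 1 lower of 12 on HSP990, and 2 higher and 2 lower on vehicle. With HSP990, only Abcg4 of the 12 passed, in wild type (-0.31 ± 0.09). Of 9 uptake genes, the lipoprotein receptor Scarb1 had -0.57 ± 0.12 on HSP990 and -0.72 ± 0.14 on vehicle, and the lipase Lpl had -0.70 ± 0.18 on HSP990 and -0.78 ± 0.20 on vehicle. That list had 3 lower and 1 higher on HSP990 and 2 lower and 1 higher on vehicle. Of 12 genes of the isoprenoid branches, 5 were higher and 3 lower on HSP990, and 5 higher and 2 lower on vehicle. Rce1, a protease that trims prenylated proteins, passed with HSP990 in both genotypes, by 0.39 ± 0.08 in R6/2 and 0.60 ± 0.08 in wild type. Nus1, a subunit of the enzyme that makes the dolichol backbone, was lower with HSP990 averaged over genotypes (-0.22 ± 0.06, adjusted p 0.0103). Of 16 transport and storage genes, 5 were higher and none lower in R6/2 on HSP990, and 1 was higher on vehicle, the oxysterol-binding protein gene Osbpl5 (0.46 ± 0.10). Of 7 genes of oxysterol and bile acid synthesis, 3 were higher in R6/2 on HSP990, among them Hsd3b7 at 0.68 ± 0.10, and none passed on vehicle, where 2 had an unadjusted p under 0.05. With HSP990, Hsd3b7 rose in R6/2 (0.44 ± 0.11) and the transport gene Osbpl2 fell in wild type (-0.28 ± 0.07). No gene of these neighbouring lists passed for the interaction.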

How the data were processed

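Total RNA was amplified with a 3′ in vitro transcription kit and hybridised to Affymetrix arrays, per the labels' protocols. The deposited values, made by the authors, are on a log2 scale for 45101 probe sets, and how they were normalized is not stated in the sources used here. Array medians lay between 5.73 and 5.78. Probe sets with a single gene symbol (34945) were kept, 932 with several and 9160 with none were left out with 64 controls, and the brightest by mean over all arrays stood for a gene. A model of 4 group means was fitted to all 18193 genes with limma 3.58.1 (R 4.3.3), two-sided, and p-values were adjusted by Benjamini-Hochberg over all genes of a comparison, with calls at an adjusted p under 0.05. The number of arrays limits the precision. Comparisons (7) set HSP990 against vehicle within R6/2, within wild type and averaged, and R6/2 against wild type under HSP990, under vehicle and averaged, with the interaction. The 28 measured genes of the 30 were described by step, with full statistics for those called in a comparison. Of each neighbouring list, at most 6 called genes a comparison, those of smallest p, could be named. The genes, lists and tests were chosen with earlier results of these data known. Alternatives covered normalization, centring, dim genes, probe sets, arrays, variance, weights, a replicate block, 3′ bias and myelin markers. The fit itself was tested on simulated data.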

Additional observations from a re-analysis of the deposited data

Results flagged for a closer look

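In 10 of 112 sets of arrays (8.93%), a set being 1 gene in 1 group, the extreme array lay far from the rest by Dixon's criterion, which flags about 1 set in 20 by chance. In R6/2 on HSP990, Lss was 7.38 on replicate 2 (next 7.78), Cyp51 was 7.61 on replicate 6 (next 7.25) and Apoe was 9.72 on replicate 5 (next 12.03), the array with the strongest 3′ bias. In R6/2 on vehicle, replicate 1 was low for both Fdps (6.69, next 7.77) and Ebp (7.02, next 7.70). In wild type on HSP990, Nsdhl was 7.46 on replicate 2 (next 7.78), Sc5d was 7.01 (next 7.72) and Apoe 12.12 (next 12.45) on replicate 5, and Cyp46a1 was 10.58 on replicate 6 (next 11.08). In wild type on vehicle, Insig1 was 8.03 on replicate 6 (next 8.60).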

How the results depend on the processing

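Of 52 calls over 28 genes and 7 comparisons, 34 held in each alternative fit and each of 32 fits without 1 array. No called change reversed. The alternative fits numbered 12, or 11 for calls of the averaged comparisons. Counts moved as follows. HSP990 in R6/2 gave 1 with median centring, 2 without dim genes and 1 with array weights, against 0 as reported. HSP990 in wild type gave 3 of 5 with the replicate block, where Lbr (adjusted p 0.122) and Stard4 (0.0546) did not pass, and the averaged Tm7sf2 call was lost there too (0.0685). Whether the replicate numbers pair samples is not known. Residuals of same-numbered arrays correlated by -0.29 to 0.38 over 43 pairs, 19 of them over 0.1. Differently numbered arrays were not compared with these, so the values cannot decide it. Without 1 array at a time, counts ran 4 to 6 for HSP990 in wild type, 0 to 4 in R6/2 (4 without R6/2 vehicle replicate 1), 9 to 12 for the genotypes on vehicle, 14 to 17 on HSP990, 0 to 1 for the interaction (Hsd17b7, without R6/2 vehicle replicate 1), 4 to 6 for HSP990 averaged and 16 to 17 for the genotypes averaged. Calls lost elsewhere were those of Pmvk, Insig2, Apoe, Lbr, Scap, Cyp51, Tm7sf2, Hmgcs1, Msmo1, Dhcr7, Idi1, Insig1 and Ggps1. With the mean of probe sets, Cyp51 on HSP990 was -0.17 (adjusted p 0.084), Scap -0.03 (0.841) and Hmgcs1 on vehicle -0.21 (0.285). Msmo1 on vehicle had an adjusted p of 0.059 with only the compared groups fitted. Over all genes, HSP990 called 1815 in wild type with array weights and 655 with the block, against 1056, and in R6/2 202 with only the compared groups and 368 with 3′ bias, against 563. The interaction called 150 with weights, 80 with mean probe sets, 23 with the block, 25 without 2 arrays and 16 with 3′ bias, against 45. Where fewer samples or genes entered, that is the setting's construction, and otherwise the cause was not tested. None of the chosen probe sets was dim.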
